A study of Mus musculus with 12 samples.

Results

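De novo lipogenesis, the making of fatty acids from carbohydrate carbon, was followed through the mRNA of 10 genes in subcutaneous white adipose tissue (scWAT) and brown adipose tissue (BAT) of wild-type (WT) and Lr11 -/- mice. The genes were 6 enzymes and carriers (Slc25a1, Acly, Me1, Acaca, Acacb and Fasn), 2 transcription factors (Srebf1 and Mlxipl) and 2 genes that respond to them (Thrsp and Pnpla3). They were listed by name out of the 20660 genes with a named probe, by a rule with no threshold on a measured value but with earlier results of these data known, and 18 of the 55681 probes on the array read them. All 10 genes and all 18 probes passed the filter on dim signal. Total RNA had been labelled with cyanine-3 and hybridised to 12 one-colour Agilent mouse arrays, 3 for each combination of genotype and tissue. Both genotypes were male C57Bl6/J mice 12 weeks old, and the WT animals were littermates of the Lr11 -/- animals, which carry a germline knockout and so lack LR11 outside fat as well. All groups were on a high-fat diet (HFD) with 60% of its calories from fat, for which the labels give both 4 weeks and the time since weaning, and no chow-fed group was measured. The methods give an n of 3 for each RNA source, but neither they nor the labels say outright that each array held the RNA of a separate animal, so the spread between arrays may in part be technical.

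Cells make fatty acids in the cytosol from acetyl-CoA that leaves mitochondria as citrate. Acetyl-CoA carboxylase turns it into malonyl-CoA, and fatty acid synthase joins malonyl units into palmitate at the expense of NADPH. The transcription factors SREBP-1c and ChREBP, which respond to insulin and to glucose, switch on the genes of the pathway. Brown fat and white fat both run it, and brown fat burns fatty acids as well as making them.

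Each log2 intensity is given relative to its array's 75th percentile, which is set to 0, and a difference of 1 is a doubling. Levels are given on this scale and are compared between arrays, never between probes. Differences were tested with limma over 32121 probes in a single fit of all 12 arrays, and a gene was called where its p, adjusted over these probes by Benjamini-Hochberg, was under 0.05. Replicate 1 of each group belonged to a first array series and replicates 2 and 3 to a second. Sorl1, the gene that encodes LR11, was lower in Lr11 -/- by a log2 difference of −4.34 in scWAT (adjusted p = 0.0063) and of −3.63 in BAT (adjusted p = 0.032), with no overlap between genotypes, and Hoxc9, a gene of posterior and subcutaneous fat chosen after its values were seen, lay between 1.08 and 3.02 on the scWAT arrays and was not well above background on any BAT array.

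Several arrays stood apart in their cell type markers. The 7 adipocyte markers averaged 3.88 on WT scWAT replicate 2 and between 6.14 and 7.68 on the other arrays, and the macrophage markers averaged 5.30 there and no more than 3.33 elsewhere. On Lr11 -/- scWAT replicate 1 the epithelial markers averaged 1.28, against −2.45 or less on every other array. Its Y-linked genes Ddx3y (−6.60) and Eif2s3y (−5.57) were not well above background, although the label says male, while the other 11 arrays had Ddx3y at 1.55 or more. Xist, the RNA of the inactive X chromosome, was not well above background on this array (−6.64) or on any other array. Skeletal muscle markers averaged over 5 on 5 arrays, WT scWAT replicate 3, Lr11 -/- scWAT replicate 1, WT BAT replicates 1 and 3 and Lr11 -/- BAT replicate 1, and under −3 on the rest. Brown adipocyte markers averaged 6.39 and 6.22 on Lr11 -/- scWAT replicates 2 and 3, within the range of the BAT arrays (5.50 to 6.48), and 2.49 on replicate 1, against −3.34 to 1.49 in WT scWAT. The part of these cells in the differences below was not tested, except where a value is given.

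**Figure D1:**
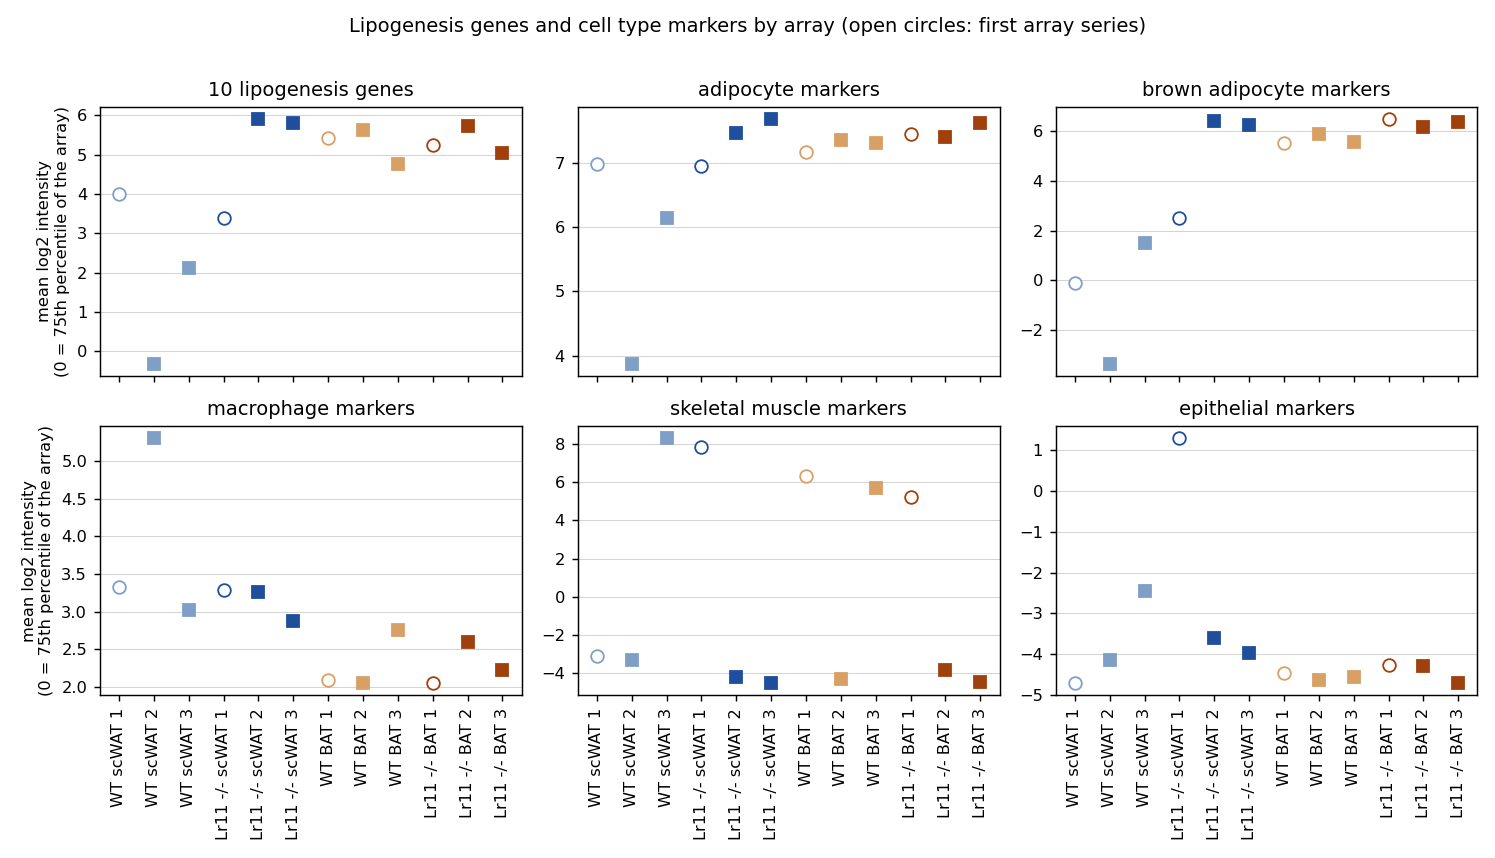
Mean log2 intensity (0 is the 75th percentile of the array) on each of the 12 arrays of the 10 lipogenesis genes and of 5 lists of cell type markers, with open circles for the first array series and squares for the second. WT scWAT replicate 2 is lowest for the lipogenesis genes (−0.32) and for the adipocyte markers (3.88). For the lipogenesis genes Lr11 -/- scWAT replicates 2 and 3 (5.91 and 5.80) lie just above the highest BAT array (5.72). For the brown adipocyte markers they lie within the range of the BAT arrays.

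In scWAT the Lr11 -/- mean exceeded the WT mean for all 10 genes (52.5% of all probes), by log2 differences from 1.42 (Me1) to 5.47 (Thrsp) with a median of 2.85, where the median over all tested probes was 0.04. Acaca alone passed the adjusted threshold, 1 gene of 10, while 5.27% of all tested probes did. At an unadjusted p under 0.05 there were 8 of the 10, against 27.6% of all probes. The Lr11 -/- arrays lay above the WT arrays without overlap for 3 genes, Acaca, Acacb and Mlxipl, as did 11.7% of all probes. With 3 arrays against 3 a two-sided exact permutation test cannot give less than p = 0.1. WT scWAT had the largest median SD of the groups for these genes (2.32), with SDs between 0.81 (Acly) and 4.27 (Thrsp). Those of Lr11 -/- BAT ran from 0.07 (Acacb) to 0.73 (Acly). For Acly and Acaca the SD was larger in Lr11 -/- scWAT (2.48 and 1.18) than in WT scWAT (0.81 and 1.05). The limma fit shares a single spread among the groups, so the closer BAT arrays narrow the SEs and intervals given for scWAT. With only the scWAT arrays fitted in limma, 0 of the 32121 probes were called.

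**Figure D2:**
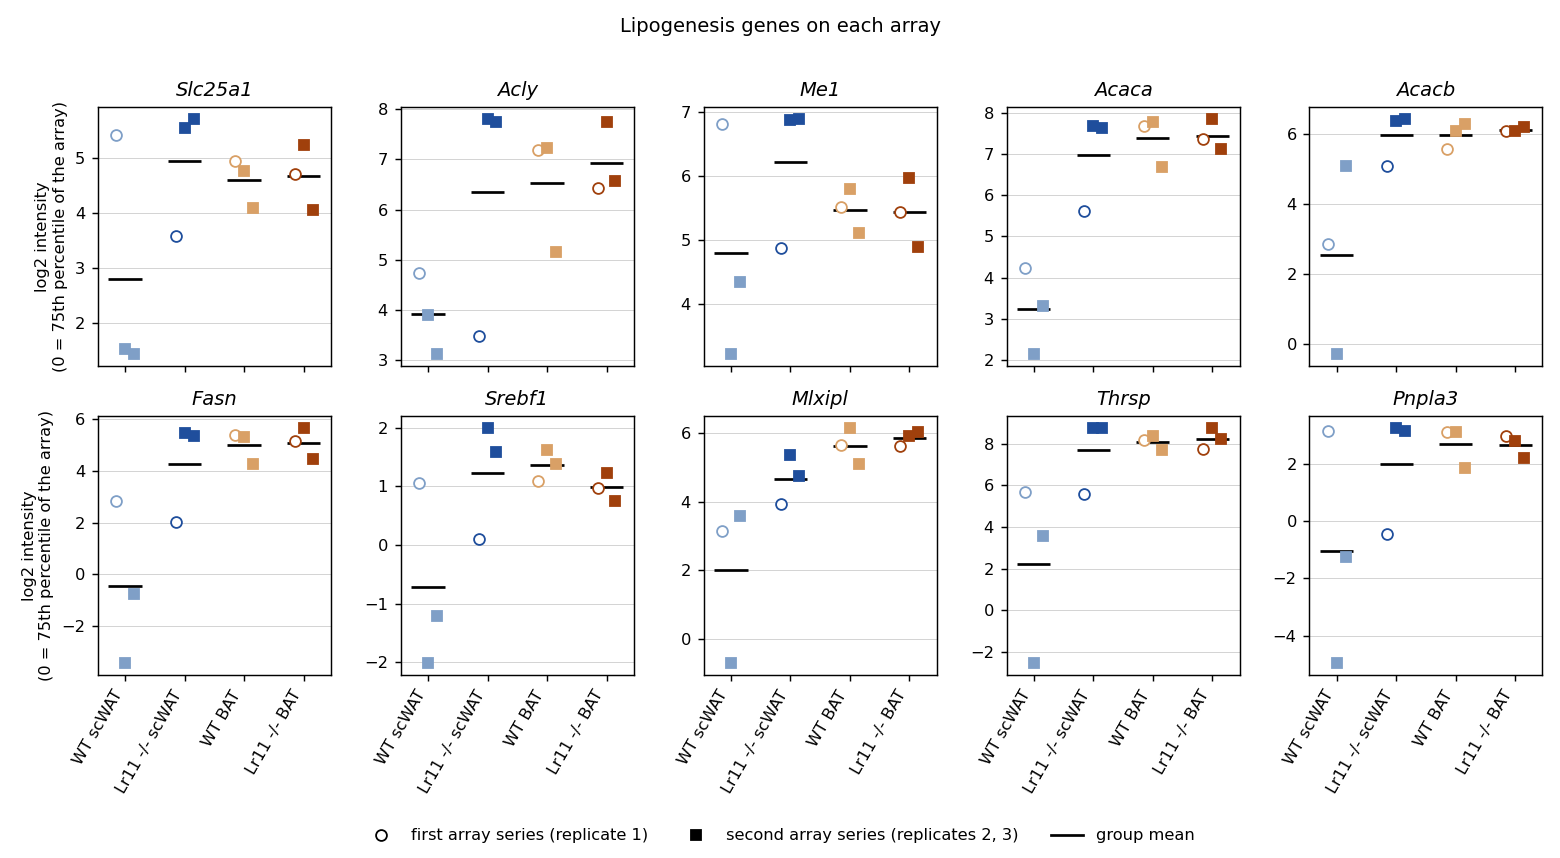
Log2 intensity (0 is the 75th percentile of the array) of each lipogenesis gene on every array, by group, with open circles for the first array series, squares for the second and a bar for the mean of 3 arrays. The scWAT arrays are spread widely while the BAT arrays sit close together, and WT scWAT has the lowest mean in all 10 panels.

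The first steps bring carbon and reducing power to the cytosol. Slc25a1, the mitochondrial citrate carrier, read 5.42, 1.52 and 1.43 on the WT scWAT arrays and 3.57, 5.54 and 5.71 on those of Lr11 -/-. The first WT array was as bright as the bright Lr11 -/- arrays, and the groups overlapped. Slc25a1 was higher in Lr11 -/- by a mean of 2.15 on the log2 scale (SE 0.96, adjusted p = 0.18).

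ATP citrate lyase, which splits the exported citrate into acetyl-CoA and oxaloacetate, is encoded by Acly. Its values in WT scWAT were 4.74, 3.91 and 3.12, and those in Lr11 -/- scWAT were 3.49, 7.81 and 7.75. Replicate 1 of Lr11 -/- fell among the WT arrays, and the others stood more than 3 above every WT array. The difference was 2.43 (SE 1.06, adjusted p = 0.17), and a dimmer probe of the gene gave 2.45.

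Me1, the cytosolic malic enzyme that yields NADPH, showed the smallest difference of the 10. WT scWAT gave 6.80, 3.22 and 4.35 and Lr11 -/- scWAT gave 4.87, 6.88 and 6.89, so that the groups overlapped, with WT replicate 1 next to the brightest arrays. The mean difference was 1.42 (SE 0.82, adjusted p = 0.28). The other probes of Me1 gave 1.08 and 2.27, and none was called.

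Acaca encodes acetyl-CoA carboxylase 1, the cytosolic enzyme that commits acetyl-CoA to fatty acid synthesis. It was the only lipogenesis gene whose genotype difference in scWAT was called. In WT scWAT it read 4.25, 2.15 and 3.32, against 5.63, 7.69 and 7.64 in Lr11 -/-. Every Lr11 -/- array was above every WT array. Acaca was higher in Lr11 -/- by 3.75 on the log2 scale (SE 0.63, 95% confidence interval 2.35 to 5.15), or 13.4-fold, with an adjusted p of 0.026. A second Acaca probe gave 3.46 (adjusted p = 0.030). The third was not well above background on WT scWAT replicate 2 and gave a fold of at least 13.9, with that array raised to its lowest signal called well above background (adjusted p = 0.035 on the values as measured). The call was lost with an array left out for WT scWAT replicate 2 (adjusted p = 0.056), Lr11 -/- scWAT replicates 2 (0.13) and 3 (0.13) and Lr11 -/- BAT replicate 1 (0.050), and over all settings of limma the adjusted p ranged from 0.0010 to 0.31.

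Acacb encodes acetyl-CoA carboxylase 2, which sits at the mitochondrial surface, where its malonyl-CoA restrains the entry of fatty acids for oxidation. The WT scWAT arrays read 2.86, −0.28 and 5.07 and those of Lr11 -/- scWAT 5.08, 6.37 and 6.43. The groups did not overlap, although the lowest Lr11 -/- array (5.08) and the highest WT array (5.07) nearly touched. Both of these arrays carried skeletal muscle signal, with marker means of 7.85 and 8.29. The log2 difference of 3.41 (SE 1.01) missed the threshold (adjusted p = 0.070), and the second probe, not well above background on WT replicate 2, gave a fold of at least 13.4 (adjusted p = 0.053).

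Fasn encodes fatty acid synthase, which assembles palmitate. The WT scWAT values were 2.85, −3.44 and −0.74, and the Lr11 -/- values 2.03, 5.47 and 5.35. Replicates 2 and 3 differed widely between the genotypes, while replicate 1 was a little lower in Lr11 -/- than in WT. The log2 difference was 4.73 (SE 1.36, 95% confidence interval 1.72 to 7.73), with an adjusted p of 0.065.

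Thrsp encodes the Spot 14 protein, a small nuclear protein of lipogenic tissues that follows thyroid hormone, insulin and carbohydrate. It had the widest range of the 10, at 5.68, −2.55 and 3.55 in WT scWAT against 5.60, 8.74 and 8.76 in Lr11 -/-. The first-series arrays of both genotypes were nearly equal, and the other Lr11 -/- arrays were above every WT array. The log2 difference was 5.47 (SE 1.67, adjusted p = 0.075).

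The upstream sequences of Fasn and Thrsp are shown because the levels of these genes followed each other more closely over the arrays than those of any other pair that included Thrsp. Each is the 250 bases before the annotated start site, read 5′ to 3′ along the gene from the RefSeq table of assembly GRCm38.p6, with capitals for CCAAT boxes in either direction (CCAAT or ATTGG), which bind the factor NF-Y.
Fasn, chr11:120824548-120824797, minus strand: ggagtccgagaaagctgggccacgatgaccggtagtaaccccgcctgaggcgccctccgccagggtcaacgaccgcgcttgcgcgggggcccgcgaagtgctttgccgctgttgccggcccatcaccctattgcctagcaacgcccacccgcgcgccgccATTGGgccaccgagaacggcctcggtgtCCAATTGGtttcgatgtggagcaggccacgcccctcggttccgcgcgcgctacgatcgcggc
Thrsp, chr7:97417551-97417800, minus strand: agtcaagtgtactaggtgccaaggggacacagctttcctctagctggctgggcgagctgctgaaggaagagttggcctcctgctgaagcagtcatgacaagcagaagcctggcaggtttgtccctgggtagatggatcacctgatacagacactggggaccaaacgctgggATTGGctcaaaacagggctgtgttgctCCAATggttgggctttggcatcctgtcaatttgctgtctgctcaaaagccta
In the Fasn stretch a CCAAT box began 90 bases before the start, and at 62 and 59 bases before it a pair of boxes in opposite directions shared bases. The Thrsp stretch held boxes 79 and 52 bases before the start. Of the 14 windows of 300 bases, 250 before to 50 after a start, that the table lists for the 10 genes, 10 held a CCAAT box, as did 37.4% of all 32851 such windows. A match is a description of letters only, and binding was not measured.

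Srebf1 encodes SREBP-1, of which the 1c form activates lipogenic genes under insulin. The WT scWAT arrays gave 1.07, −2.02 and −1.21, and those of Lr11 -/- gave 0.11, 2.0 and 1.58. WT replicate 1 was above Lr11 -/- replicate 1 and below the other Lr11 -/- arrays. Their means differed by 1.95 (SE 0.70, adjusted p = 0.11).

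Mlxipl encodes ChREBP, the glucose-responsive activator of the same genes, and was read by a pair of probes that disagreed. The probe with the higher mean gave 3.14, −0.72 and 3.58 in WT scWAT against 3.94, 5.37 and 4.75 in Lr11 -/-. There was no overlap, and WT replicate 2 was far below the rest. This probe was higher in Lr11 -/- by 2.68 (SE 0.91, adjusted p = 0.096). The second probe stayed between 3.32 and 4.34 over all 12 arrays, with a difference of −0.18 (adjusted p = 0.67), and was highest on WT scWAT replicate 2, where the first was lowest.

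The 2 starts that the table lists for Mlxipl differed in the motifs searched, which were the CCAAT box, the E-box CACGTG, the GC box GGGCGG and the SRE core CACCCCA, each on both strands. The upstream start is shown because it held all 4, with those that end before the start site in capitals.
Mlxipl, chr5:135089640-135089889, plus strand: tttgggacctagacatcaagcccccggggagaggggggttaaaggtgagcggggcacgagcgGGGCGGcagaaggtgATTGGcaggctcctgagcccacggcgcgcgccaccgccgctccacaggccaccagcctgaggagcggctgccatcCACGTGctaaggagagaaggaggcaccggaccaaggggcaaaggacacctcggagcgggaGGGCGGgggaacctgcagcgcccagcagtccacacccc
The E-box, of the kind that ChREBP and its partner bind, began 98 bases before the start, and GC boxes began 188 and 38 bases before it. The SRE core ran from 6 bases before the start across it and is left in lower case. In the window of the downstream start none of the 4 was found. Over the 14 windows the E-box was in 2, the SRE core in 1 and the GC box in 7, where 7.15%, 7.62% and 35.7% of all windows held them. Exact letters miss variant sites, so no match says only that these letters are not in the window.

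Pnpla3, which encodes a lipid droplet protein induced by SREBP-1c and ChREBP, read 3.12, −4.97 and −1.26 in WT scWAT against −0.44, 3.24 and 3.15 in Lr11 -/-. The signal was not well above background on WT replicate 2, and WT replicate 1 was as bright as the brightest Lr11 -/- arrays. The log2 difference was 3.02 (SE 1.65, adjusted p = 0.26), and with the dim array raised to its lowest measurable signal the fold was at least 7.17. The second probe was dim on 1 WT array too and gave a fold of at least 2.96 (adjusted p = 0.46).

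**Figure D3:**
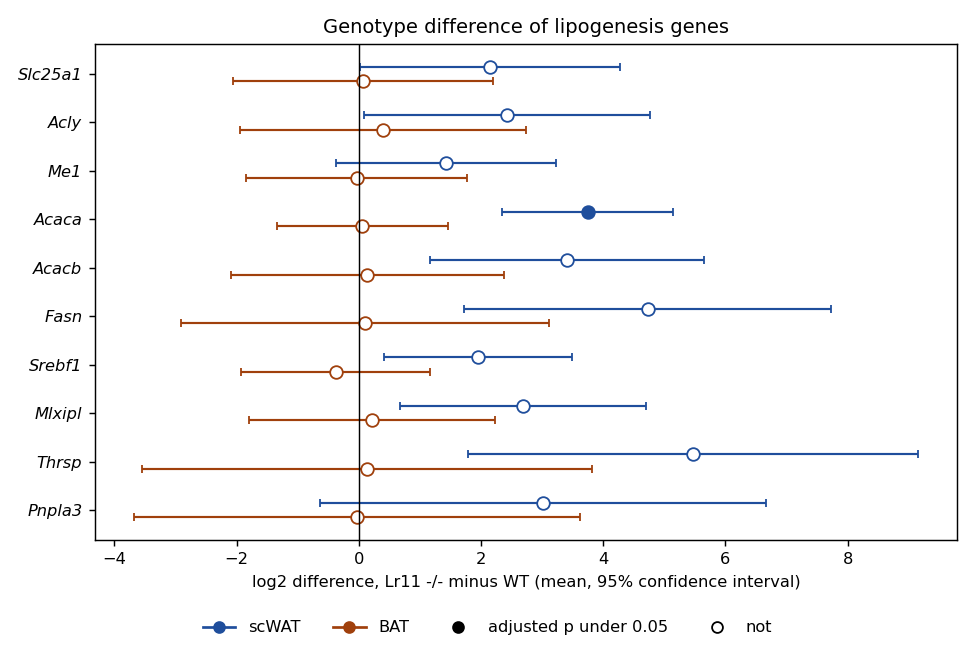
Log2 difference between Lr11 -/- and WT for each lipogenesis gene in scWAT and in BAT, with 95% confidence intervals from limma and filled points for an adjusted p under 0.05. All 10 scWAT points lie above 0 and only that of Acaca is filled, while the BAT points lie between −0.38 and 0.39.

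The array series gave different pictures of scWAT. Within the first series, 1 array per genotype and so without a test, 7 of the 10 genes were lower in Lr11 -/- than in WT and 3 were higher, Acaca (1.38), Acacb (2.22) and Mlxipl (0.80). Here the Lr11 -/- array carried skeletal muscle signal and the WT array did not. The largest of the 7 were Pnpla3 (−3.56), Me1 (−1.93) and Slc25a1 (−1.85), and Thrsp was close to 0 (−0.08). Within the second series all 10 genes were higher in Lr11 -/-, by 3.10 (Me1) to 8.25 (Thrsp). In a fit of that series alone 8 of the 10 were called, the exceptions being Acacb and Mlxipl. Many more probes of the whole array were called there too, 7259 of 32121 against 1692 in the fit of all arrays. With the series as a block in the fit of all arrays Acaca was again the gene called, and 1294 of all probes were. Every group has the same make-up of series, so this block could not move the differences and does not test whether the series disagree.

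**Figure D4:**
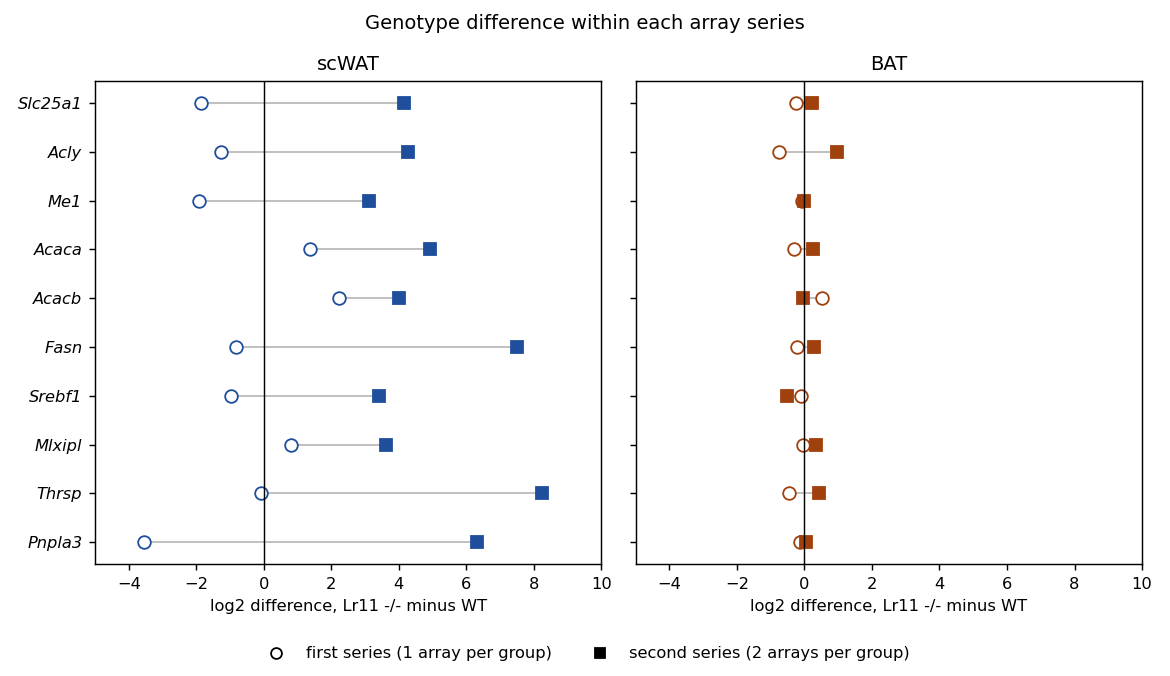
Log2 difference between Lr11 -/- and WT for each lipogenesis gene within the first series (open circles, 1 array per group) and the second series (squares, 2 arrays per group). In scWAT the second series gives differences of 3.10 to 8.25 and the first runs from −3.56 to 2.22, whereas in BAT both stay close to 0.

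The arrays that stood apart moved with these values. WT scWAT replicate 2, with its low adipocyte and high macrophage markers, was the lowest of the 12 arrays for 8 genes, and Slc25a1 and Acly were lowest on WT scWAT replicate 3. Without WT scWAT replicate 2 all 10 differences remained above 0, from 0.64 (Me1) to 3.23 (Fasn), and 0 genes were called. Of the 32121 probes 222 were called in that fit, against 1692 in the fit of all arrays. Without Lr11 -/- scWAT replicate 1, the array with epithelial and without Y-linked signal, 6 genes were called, Acly, Acaca, Acacb, Fasn, Srebf1 and Thrsp, and 6371 probes. With both of these arrays left out 6 genes were called as well, and 6023 probes, and the differences ran from 1.31 (Me1) to 4.35 (Fasn). Leaving out the 5 arrays with muscle signal left a single WT BAT array in the fit, and the scWAT differences ran from 1.88 (Me1) to 7.18 (Thrsp). With the mean of the adipocyte markers as a covariate 0 genes and 0 of the 32121 probes were called in limma. The differences shrank to a median of 0.59, that of Acaca to 2.49 (adjusted p = 0.24), and those of Me1 (−0.43) and Pnpla3 (−1.25) turned negative. In whole tissue, fewer adipocytes and less of these mRNAs per adipocyte cannot be told apart.

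In BAT no difference between the genotypes was detectable in these genes. On the probes the genes were read from, log2 differences ran from −0.38 (Srebf1) to 0.39 (Acly) with a median of 0.09, against 0.04 over all probes. The other Me1 probes went opposite ways, with means of 4.64 and 4.14 in WT BAT against 4.03 and 4.50 in Lr11 -/- BAT. None of the 10 genes was called in limma and 0 reached an unadjusted p under 0.05, where 0.0187% and 2.12% of all probes did. Acaca was 7.68, 7.79 and 6.69 in WT BAT and 7.36, 7.86 and 7.12 in Lr11 -/- BAT. These overlapped, and the difference was 0.06 (95% confidence interval −1.34 to 1.46). Fasn, at 5.38, 5.32 and 4.25 in WT and 5.16, 5.66 and 4.45 in Lr11 -/-, differed by 0.11 (95% confidence interval −2.90 to 3.11). For Thrsp, with 8.18, 8.38 and 7.72 against 7.74, 8.74 and 8.21, the difference was 0.13 and the interval −3.55 to 3.82. The intervals come from a spread shared with the scWAT arrays, and differences of several fold in either direction lie inside them.

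The difference between the effects in scWAT and BAT was tested as an interaction. It was above 0 for all 10 genes and for 51.1% of all probes, with a median of 2.76 against 0.02 over all probes, and was largest for Thrsp at 5.34. None was called in limma (the smallest adjusted p was 0.35, for Acaca), nor was any probe on the array (0.0%). At an unadjusted p under 0.05 there were 5, Acaca, Acacb, Fasn, Srebf1 and Thrsp, against 11.0% of all probes. So the genotype difference in scWAT was not shown to differ from that in BAT in this fit. With the second array series alone 4 were called, Slc25a1, Acaca, Fasn and Srebf1, as were 890 of the 32121 probes.

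Between the tissues of WT mice, BAT was the brighter for all 10 genes (53.6% of all probes) and the difference was called for 5 of them, Acaca, Acacb, Fasn, Mlxipl and Thrsp, while 15.7% of all probes were called higher in BAT. This comparison shares its WT scWAT arrays with the genotype comparison in scWAT. Thrsp, at 8.18, 8.38 and 7.72 in WT BAT, was above all WT scWAT arrays by a mean of 5.87 (SE 1.67, adjusted p = 0.029). The Fasn difference was 5.43 (SE 1.36, adjusted p = 0.018), that of Acaca 4.15 (SE 0.63, adjusted p = 0.0037), that of Mlxipl 3.64 (SE 0.91, adjusted p = 0.018) and that of Acacb 3.42 (SE 1.01, adjusted p = 0.033). The second Mlxipl probe went the other way, with means of 3.82 in WT scWAT and 3.54 in WT BAT. Srebf1, with 1.09, 1.63 and 1.39 in WT BAT, did not overlap with WT scWAT and lay at the threshold (2.09, adjusted p = 0.051). The groups did not overlap for 7 genes, where 24.3% of all probes were higher without overlap. Slc25a1 (1.80, adjusted p = 0.19) and Me1 (0.68, adjusted p = 0.56) were among those with overlap. In the fit of all arrays 7970 of the 32121 probes were called in either direction. Acaca was the single gene of the 10 called with the slide as a block, where 3993 probes were called. It was so too with the scWAT and BAT arrays of WT fitted alone (3920 probes) and with the adipocyte markers as a covariate (988 probes). Without WT BAT replicate 1 (3886 probes) or 2 (3276 probes) Acaca was again the single gene.

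In Lr11 -/- mice no difference between the tissues passed the test in these genes, and the contrast with WT mice is the interaction above, in which none was called. The BAT minus scWAT difference ran from −0.79 (Me1) to 1.18 (Mlxipl), with a median of 0.50, and 7 of 10 were above 0, as were 56.6% of all probes. None was called in limma or had an unadjusted p under 0.05, where 0.0405% and 9.0% of all probes did. Mlxipl, at 5.62, 5.92 and 6.04 in Lr11 -/- BAT, was above all 3 Lr11 -/- scWAT arrays (adjusted p = 0.72), and it was the one gene whose groups did not overlap, where 23.2% of all probes did not. On the second Mlxipl probe the groups did overlap, with means of 3.64 in Lr11 -/- scWAT and 3.71 in Lr11 -/- BAT. The array series again gave different values, as all 10 genes were higher in BAT on the first-series arrays and 9 were lower in BAT on those of the second. On Lr11 -/- scWAT replicates 2 and 3, which matched each other within 0.02 (Me1) to 0.62 (Mlxipl), 7 of the 10 genes reached their highest value of all 12 arrays.

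**Figure D5:**
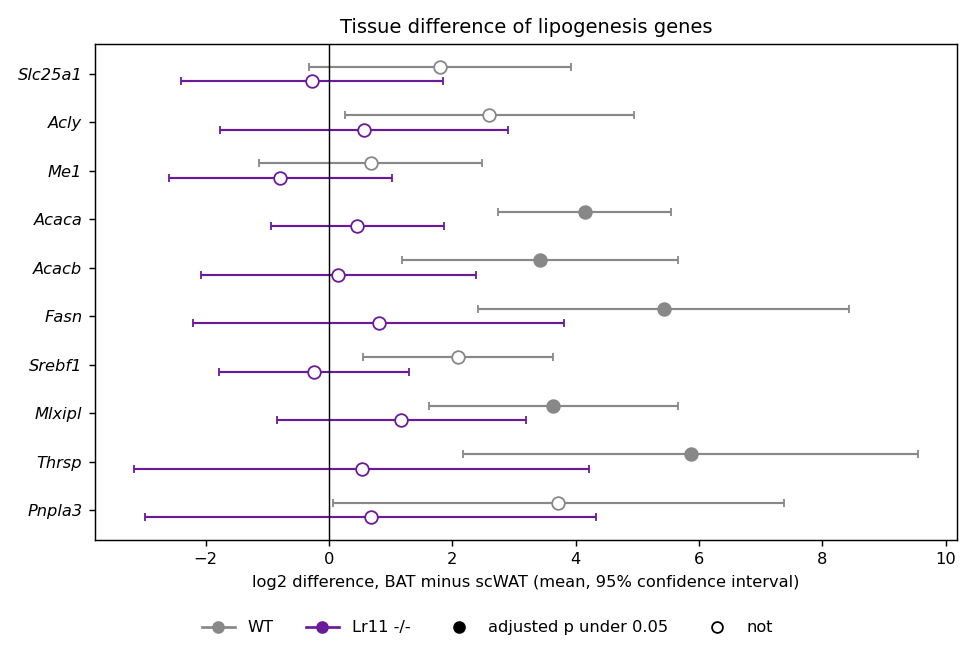
Log2 difference between BAT and scWAT for each lipogenesis gene in WT and in Lr11 -/- mice, with 95% confidence intervals from limma and filled points for an adjusted p under 0.05. In WT all 10 points lie above 0 and 5 are filled, and in Lr11 -/- they lie between −0.79 and 1.18 with none filled.

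Ordered by their means, the groups gave WT scWAT as the lowest for every gene, and the place of the other 3 varied. Their neighbours in that order overlapped for all genes but Acaca, Acacb and Mlxipl, for which the step from WT scWAT to Lr11 -/- scWAT was free of overlap. Lr11 -/- scWAT was the highest group for Slc25a1 (4.94 ± 1.19, SD, n = 3) and Me1 (6.22 ± 1.16), which supply citrate and NADPH. WT BAT was highest for Srebf1 (1.37 ± 0.27) and Pnpla3 (2.68 ± 0.73). For Acly, Acaca, Acacb, Fasn, Mlxipl and Thrsp it was Lr11 -/- BAT.

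Genes around the pathway were taken as 5 lists, and in scWAT 4 of their 55 tested genes (7.27%) were called between the genotypes, against 5.27% of all probes. At an unadjusted p under 0.05 there were 31 (56.4%), against 27.6% of all probes. Of 13 genes of carbon and NADPH supply, 13 were above 0 in Lr11 -/- (52.5% of all probes) with a median of 2.24, and Pdha1, a subunit of pyruvate dehydrogenase, was called (2.51, adjusted p = 0.044). Elovl6, which lengthens palmitate, was the gene called among 10 tested genes of elongation, desaturation and esterification (4.45, adjusted p = 0.039), and the list's median was 1.90. Among 15 partners and controllers of SREBP-1c and ChREBP 0 were called, 6 had an unadjusted p under 0.05 and the median was 0.18. In the list of 12 genes around the control of acetyl-CoA carboxylase and the fate of malonyl-CoA the median was 0.84. Cpt2, which takes part in mitochondrial fatty acid import, was called there (2.77, adjusted p = 0.046). Of 5 further ChREBP targets Arrdc4, an arrestin-like gene that answers to glucose, fell by 1.54 on the log2 scale (adjusted p = 0.026), opposite to the other 4, which were above 0. With the adipocyte markers as a covariate, or with the scWAT arrays fitted alone, 0 of the 32121 probes were called in limma, and so none of these 4 genes was, while 3555 and 4658 probes had an unadjusted p under 0.05. In BAT none of the 55 tested genes of the 5 lists was called between the genotypes in limma, and 1 (1.82%) had an unadjusted p under 0.05, against 2.12% of all probes.

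Between the tissues of WT mice 20 of the 55 genes (36.4%) were called higher in BAT and 3 (5.45%) lower, where 15.7% and 9.13% of all probes were. Among carbon and NADPH supply 5 genes were higher in BAT, led by Pdha1 (3.29, adjusted p = 0.0057) and Tkt of the pentose phosphate pathway (3.14, adjusted p = 0.013). Elovl6 (5.17, adjusted p = 0.0058), Gpam (2.88, adjusted p = 0.010, with 1 WT scWAT array dim), Dgat1 (2.04, adjusted p = 0.030) and Scd1 (1.92, adjusted p = 0.042), which lengthen, esterify and desaturate fatty acids, were higher in BAT too. Ppargc1b, a coactivator of SREBP-1, was 4.02 higher (adjusted p = 0.0071) and Mlx, the partner of ChREBP, 1.12 higher (adjusted p = 0.038), while Mbtps2, a protease that releases SREBPs, was lower by −1.07 (adjusted p = 0.030). Around acetyl-CoA carboxylase 6 genes were higher in BAT and 1 lower, and the largest rises were those of Cpt1b (5.69, adjusted p = 0.017), a carnitine palmitoyltransferase that malonyl-CoA inhibits, and of Cpt2 (3.15, adjusted p = 0.010). Cpt1a, its relative of white fat and liver, was the lower (−1.62, adjusted p = 0.013). Gpd1 was higher (3.99, adjusted p = 0.034) and Arrdc4 lower (−1.98, adjusted p = 0.0025). In Lr11 -/- mice 0 of the 55 genes were called between the tissues in limma, as were 0.0405% of all probes, and 3 (5.45%) had an unadjusted p under 0.05, against 9.0%.

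Likeness of pattern was measured as the root mean square (RMS) difference of a gene from another over the 12 arrays, each set to a mean of 0. The gene most like Thrsp among 19172 named probes was Fasn, at an RMS difference of 0.80 where Thrsp itself varied by an RMS of 3.15. Acaca was nearest to Cpt2 (0.33, against its own 1.89), and Slc25a1 to Nsdhl (0.31, against 1.39), an enzyme of cholesterol synthesis. Fasn was nearest to Poln (0.61). Thrsp was the closest to Fasn of the other lipogenesis genes at 0.80, with 11 named probes nearer. Among the 10, Srebf1 differed least from Slc25a1 (0.51), but 126 named probes were nearer to it, led by Ppp2r5a (0.31). Mlxipl and Acacb were each the other's closest of the 10 (0.64). Nearer to them were 51 and 17 named probes, led by Ldhd (0.36) and Kyat3 (0.36). With 12 arrays in 4 groups these values are a description, and they follow the same arrays that stood apart.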

How the data were processed

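The authors deposited scanner intensity values of each array, background-subtracted and detrended by Agilent Feature Extraction (10.10 in the submitters' processing notes, 10.10.1.1 in the file headers) and not normalized between arrays; a series-wide table that was also deposited repeats these values. Groups follow the source labels. Spots marked as outliers were dropped, log2 intensities of a probe's spots averaged and the 75th percentile of each array subtracted. Of 55681 probes 32121 were tested, namely those called well above background throughout the 3 arrays of 1 group or more. Between 374 and 632 was the 75th percentile per array, and 0 spots were saturated. Probes were named through RefSeq accessions and a GRCm38.p6 gene table (27235 of 28685 matched). A gene was read from its tested probe with the highest mean. Its other probes are given for the genotype difference in scWAT, and elsewhere only where named.

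Group means were fitted with limma 3.58.1 (lmFit, eBayes) in R 4.3.3, with Benjamini-Hochberg adjustment. Steps were tested on simulated data in which each probe had the same spread in every group, unlike the measured lipogenesis genes. Python 3.11.15, pandas 2.3.3 and matplotlib 3.10.9 made summaries and figures. A fold given as "at least" raises dim arrays to their lowest signal called well above background. The lipogenesis genes, the 5 pathway lists and the cell type markers were chosen with earlier results of these data known. From a list, genes past the threshold are named, or where more than 4 passed, the 2 largest differences in each direction. Promoter windows come from RefSeq (GRCm38.p6). Alternatives changed scaling, background, filter, blocks, array weights and arrays used. The cause of a difference was not tested.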

Additional observations from a re-analysis of the deposited data

How the results depend on the processing

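The number of the 10 lipogenesis genes called between the genotypes in scWAT, 1 in the fit of all arrays, was 8 with the second array series alone, 6 with array weights, 0 with only the scWAT arrays fitted, 0 to 7 with an array left out, 0 with the adipocyte markers as a covariate, 3 without the 5 arrays with muscle signal, and 6 without WT scWAT replicate 2 and Lr11 -/- scWAT replicate 1. The interaction count, 0, was 4 with the second series alone, 3 with array weights, 2 without that pair of arrays and 0 to 1 with an array left out. Between the tissues of WT mice the count of 5 was 3 without the filter on dim probes, 1 with the slide as a block, 1 with only the WT arrays, 1 with the adipocyte covariate, 1 without the arrays with muscle signal and 1 to 8 with an array left out. In BAT between the genotypes and in Lr11 -/- between the tissues it was 0 under every alternative run. Other scalings, normexp, outlier spots kept, the array series as a block and the mean of all probes of a gene kept these counts within 1.5 times. The probes called changed in number too. In scWAT between the genotypes 1692 of 32121 were called in the fit of all arrays and 3651 with array weights. With an array left out the range was 3 (Lr11 -/- scWAT replicate 3) to 6371 (Lr11 -/- scWAT replicate 1). For the interaction the number was 0, with 1092 under array weights and 1954 without the pair of arrays. Between the tissues of WT mice it was 7970, and 5794 of 55681 without the filter on dim probes. The cause of these changes was not tested, beyond the fewer arrays that some settings hold. The covariates and the sets of arrays left out together were chosen after seeing the data.

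With the adipocyte covariate signs changed for the genotype in scWAT (Me1 −0.43, Pnpla3 −1.25), for the interaction (Me1 −0.16, Pnpla3 −0.69) and for the tissues of WT (Me1 −1.08, Pnpla3 −0.33), where Me1 was also −0.11 without the pair of arrays. For the genotype in BAT they changed under quantile normalization (Slc25a1 −0.0038, Acaca −0.032), median scaling (Pnpla3 0.012), the second series alone (Acacb −0.051, Pnpla3 0.032), array weights (Slc25a1 −0.0065, Acaca −0.023, Fasn −0.017), the adipocyte covariate (Slc25a1 −0.15, Acaca −0.097, Acacb −0.14, Fasn −0.31, Mlxipl −0.074, Thrsp −0.45), the muscle covariate (Slc25a1 −0.30, Acly −0.23, Acaca −0.17, Fasn −0.26, Thrsp −0.059) and without the arrays with muscle signal (Slc25a1 −0.11, Acly −0.060, Acaca −0.30, Fasn −0.27, Mlxipl −0.18). For the tissues of Lr11 -/- they changed with the second series alone, and equally without the arrays with muscle signal (Acly −0.61, Acaca −0.18, Acacb −0.27, Fasn −0.35, Thrsp −0.28, Pnpla3 −0.70), with array weights (Acly −0.61, Acaca −0.14, Acacb −0.21, Fasn −0.24, Thrsp −0.29, Pnpla3 −0.49), the adipocyte covariate (Acacb −0.013) and without the pair of arrays (Acly −0.86, Acaca −0.22, Acacb −0.28, Fasn −0.32, Thrsp −0.52, Pnpla3 −0.54). With an array left out, ranges that crossed 0 were, in BAT between the genotypes, Slc25a1 −0.21 to 0.38, Acly −0.29 to 0.74, Me1 −0.30 to 0.23, Acaca −0.29 to 0.26, Acacb −0.068 to 0.29, Fasn −0.26 to 0.42, Mlxipl −0.052 to 0.48, Thrsp −0.12 to 0.38, Pnpla3 −0.45 to 0.20, in Lr11 -/- between the tissues, Slc25a1 −0.96 to 0.11, Acly −0.86 to 1.30, Acaca −0.22 to 0.81, Acacb −0.28 to 0.39, Fasn −0.32 to 1.40, Srebf1 −0.80 to 0.14, Thrsp −0.52 to 1.06, Pnpla3 −0.54 to 1.30, and in WT between the tissues, Me1 −0.11 to 1.68.

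No paired analysis was possible because the labels carry no replicate numbers that link arrays across groups. Pnpla3 could not be tested with the filter that asks for signal on every array, since 1 WT scWAT array was dim. The number of arrays limits the precision, and the first series, with 1 array per group, gives values without a test. As 2 slides held the first series of 1 tissue each and the third held the whole second series, slide and tissue cannot be told apart within the first series.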
